A study of Homo sapiens with 16 samples.

Results

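Polyamine metabolism was followed through 8 genes, ODC1, AMD1, SRM, SMS, SAT1, OAZ1, OAZ2 and AZIN1, in bulk poly(A) RNA-seq of 2 human cancer cell lines treated with estrogen. The members were taken by name from a list that was drawn up with earlier results of these data known, and they made up 8 of the 26364 genes in the count tables. All 8 had counts in all 16 libraries and passed the filter on low counts in both lines. The study followed the transcriptional response to 17beta-estradiol (E2) over time in Ishikawa cells, an endometrioid adenocarcinoma line, and T-47D cells, a breast carcinoma line. Before treatment both lines were deprived of hormone in medium without phenol red and with charcoal-stripped serum, so that every group shared this state. The 8 groups were each line at 0 h and after 2, 4 and 8 h of 10 nM E2, with 2 libraries a group. The study's methods describe the 0 h cells as vehicle treated, whereas their labels also name 10 nM E2, for 0 h, and every change below is measured against these libraries. Each tissue was represented by 1 line, so that tissue and line cannot be told apart. The labels do not say that the 2 libraries of a group came from separate cultures, and p-values therefore measure the spread between these libraries, which may be technical.

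Polyamines are small, positively charged molecules that bind nucleic acids and are needed for growth. Ornithine decarboxylase, encoded by ODC1, turns ornithine into putrescine, and spermidine synthase (SRM) and spermine synthase (SMS) then add aminopropyl groups that come from S-adenosylmethionine through its decarboxylase, AMD1. Spermidine/spermine acetyltransferase (SAT1) marks polyamines for oxidation or export. Antizymes 1 and 2 (OAZ1, OAZ2) bind ornithine decarboxylase and send it to the proteasome, and antizyme inhibitor 1 (AZIN1), an inactive relative of the enzyme, binds antizyme in its place. Much of this control acts on translation and protein stability, which counts of RNA do not show. ODC1 is a long-known hormone-responsive gene of reproductive tissues.

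Total counts ran from 41177912 to 58918642 in the 8 Ishikawa libraries and from 41223813 to 64148903 in the 8 T-47D libraries. All 7 breast luminal markers had a median above 1 CPM (counts scaled to a common library size) in T-47D cells, against 4 of 7 in Ishikawa cells, where GATA3, SPDEF and TFF1 stayed below it. All 6 endometrial markers passed that level in Ishikawa cells, against 1 of 6 in T-47D cells, and all 4 epithelial markers passed it in both. Blood and endothelial markers passed in 1 of 5 cases in Ishikawa cells (VWF, 7.36 CPM) and in 0 of 5 in T-47D cells, and stromal markers in 2 of 5 in each line, led by COL1A1. The late Ishikawa libraries stood apart from their labels. By root mean square log2 distance over 15787 genes, 4 h replicate 1 lay closer to 8 h replicate 2 (0.195) and 4 h replicate 2 closer to 8 h replicate 1 (0.188) than the 2 libraries of 4 h lay to each other (0.224) or the 2 of 8 h (0.205). Between 8 h and 4 h, the edgeR quasi-likelihood test called 2 genes in Ishikawa cells, neither of them a member, where 554 genes had an unadjusted p under 0.05, and it called 533 genes in T-47D cells. The late Ishikawa calls of the members are therefore also given with the 4 libraries of 4 h and 8 h taken as 1 group. Many late values of other genes, and the ranking by likeness to ODC1, are given by the labelled times alone.

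Promoter sequences for 7 of the 8 members were found in the RefSeq table on GRCh38.p14, each running from 250 bases before to 50 bases after the gene start. AZIN1 was not matched. The promoters of ODC1 (chr2:10447963-10448262, minus strand), AMD1 (chr6:110874534-110874833, plus strand), SRM (chr1:11059969-11060268, minus strand) and SAT1 (chrX:23782923-23783222, plus strand) are shown 5′ to 3′, because the comparisons turn on these 4 genes. Capitals mark the E-box letters CACGTG, which read alike on both strands and are bound by MYC and related factors.
ODC1: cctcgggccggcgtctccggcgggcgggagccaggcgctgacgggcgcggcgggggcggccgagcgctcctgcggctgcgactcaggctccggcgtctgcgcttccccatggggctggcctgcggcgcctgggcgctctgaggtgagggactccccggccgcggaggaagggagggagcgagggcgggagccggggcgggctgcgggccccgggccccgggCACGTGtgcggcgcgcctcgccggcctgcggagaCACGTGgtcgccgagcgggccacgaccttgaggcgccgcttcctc
AMD1: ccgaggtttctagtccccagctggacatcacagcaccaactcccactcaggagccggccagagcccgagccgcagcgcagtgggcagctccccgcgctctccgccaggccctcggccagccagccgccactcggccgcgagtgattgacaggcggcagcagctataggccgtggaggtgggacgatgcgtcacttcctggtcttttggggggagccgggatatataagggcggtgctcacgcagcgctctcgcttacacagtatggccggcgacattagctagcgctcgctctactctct
SRM: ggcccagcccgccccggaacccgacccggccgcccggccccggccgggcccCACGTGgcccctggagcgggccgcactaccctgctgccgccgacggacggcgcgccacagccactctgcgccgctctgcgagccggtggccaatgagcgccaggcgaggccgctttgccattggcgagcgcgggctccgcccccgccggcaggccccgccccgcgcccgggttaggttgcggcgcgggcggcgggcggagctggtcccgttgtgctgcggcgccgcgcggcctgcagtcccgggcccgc
SAT1: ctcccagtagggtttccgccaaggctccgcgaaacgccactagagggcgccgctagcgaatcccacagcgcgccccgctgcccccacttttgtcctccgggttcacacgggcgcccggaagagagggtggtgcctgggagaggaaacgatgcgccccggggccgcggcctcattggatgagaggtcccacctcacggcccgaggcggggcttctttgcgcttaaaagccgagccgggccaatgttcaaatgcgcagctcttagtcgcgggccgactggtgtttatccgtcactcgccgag
The E-box stood in ODC1, with its first letter 29 bases before and again 5 bases after the gene start, and in SRM, 199 bases before it, against 7.26% of all 35116 promoters of this length. AMD1, SAT1, SMS, OAZ1 and OAZ2 had no E-box in this window. The palindromic estrogen response element GGTCANNNTGACC, where N is any base, was in no matched member and in 0.057% of all promoters. Its extended half-site AGGTCA, which overlaps it and was read on both strands, was in SMS alone among the matched members, 223 bases before the start, and in 13.8% of all promoters. The TATA box letters TATAAA, on either strand, were in OAZ1, with their first letter 6 bases after the start, and in 11.5% of all promoters. The GC box GGGCGG, on either strand, was in every matched member but SAT1 and in 45% of all promoters. The SRM window held 82% G and C and that of ODC1 80.7%, against 66% for SAT1, 65.3% for AMD1 and a median of 58.7% over all promoters. These matches describe letters in a fixed window, and no binding was measured here.

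Before E2, ODC1 was far higher in Ishikawa than in T-47D cells, and it was the member whose level differed most between the lines. Levels per gene length, as CPM per kb of transcript at 0 h, ordered the members within a line. In Ishikawa cells OAZ1 led at 782 ± 7.62 (SD, n = 2), ahead of ODC1 at 251 ± 15.7. SAT1 (79.6 ± 4.45) and AZIN1 (78.9 ± 9.80) followed and overlapped each other. SRM (66.9 ± 1.90), OAZ2 (48.3 ± 1.98), SMS (39.9 ± 2.40) and AMD1 (35.4 ± 3.33) came last in CPM per kb, each without overlap with its neighbour, although SMS and AMD1 differed by less than the sum of their SDs. In T-47D cells OAZ1 also led, at 362 ± 3.45 CPM per kb, and the next was SAT1 at 77.5 ± 3.25. OAZ2 (67.7 ± 1.23) and SMS (67.4 ± 1.90) overlapped, AZIN1 stood at 60.6 ± 3.75, and SRM (36.2 ± 1.37) and ODC1 (35.3 ± 0.451) overlapped. AMD1, at 15.1 ± 0.471 CPM per kb, was lowest in both lines, whereas ODC1 ranked second in Ishikawa cells and next to last in T-47D cells.

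**Figure D1:**
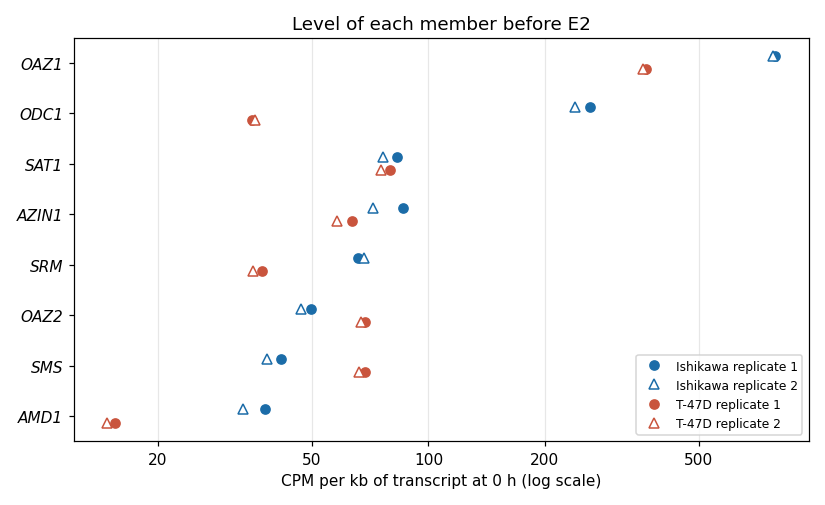
Level of the 8 members at 0 h in CPM per kb of transcript on a log axis, with each library as a point (blue, Ishikawa; red, T-47D; circle, replicate 1; triangle, replicate 2). The points of the lines lie far apart for ODC1 (251 against 35.3 on average) and overlap for SAT1.

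In the fit of all 16 libraries, 7 of the 8 members differed between the lines at 0 h, beside 81.9% of the 17090 genes tested (39.5% higher and 42.4% lower in T-47D cells), so that a difference was the usual case. Among the synthesis genes, ODC1 (hg19 chromosome 2, 10580094 to 10588453, minus strand) had 648 and 593 CPM in Ishikawa cells and 86.7 and 88.3 CPM in T-47D cells. The T-47D libraries were lower by far, with a log2 difference of -2.83 (SE 0.069, adjusted p = 1.06e-18). AMD1 (chromosome 6, 111195973 to 111220082, plus strand) had 129 and 113 CPM in Ishikawa against 52.8 and 50.6 in T-47D cells, a log2 difference of -1.23 (adjusted p = 1.41e-13). SRM (chromosome 1, 11114641 to 11120077, minus strand) had 82.7 and 86.0 CPM against 46.9 and 44.4, a log2 difference of -0.89 (adjusted p = 5.14e-08). SMS (chromosome X, 21958827 to 22012955, plus strand), the last enzyme of the chain, went the other way, with 70.8 and 65.1 CPM in Ishikawa against 117 and 112 in T-47D cells (log2 difference 0.76, adjusted p = 2.27e-10). The first enzymes of synthesis were thus lower and the last one higher in T-47D cells.

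The catabolic gene SAT1 (chromosome X, 23801290 to 23804327, plus strand) had overlapping levels of 86.8 and 80.2 CPM in Ishikawa and 83.7 and 78.8 CPM in T-47D cells, and its log2 difference was -0.04 (95% interval -0.22 to 0.14, adjusted p = 0.667). The antizymes differed in opposite directions. OAZ1 (chromosome 19, 2269508 to 2273489, plus strand) had 904 and 892 CPM in Ishikawa and 418 and 413 in T-47D cells, a log2 difference of -1.11 (adjusted p = 6.32e-15). OAZ2 (chromosome 15, 64979772 to 64995480, minus strand) had 96.1 and 90.7 CPM in Ishikawa and 133 and 129 in T-47D cells, a log2 difference of 0.49 (adjusted p = 2.66e-08). All 7 calls at 0 h were kept with any 1 of the 16 libraries left out. Reads shared with a near-identical copy or an overlapping gene could not be separated here for some members. Processed pseudogenes named after ODC1, AMD1, SRM, SMS and OAZ1 have no row in the tables, and JSRP1, which overlaps OAZ1 on the opposite strand, held at most 0.685% of the OAZ1 count.

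The antizyme inhibitor gene AZIN1 lies on hg19 chromosome 8 from 103838339 to 103906092 on the minus strand, and long noncoding RNA genes on the opposite strand overlap it. Its level at 0 h was 360 and 302 CPM in Ishikawa and 265 and 243 CPM in T-47D cells. The 2 Ishikawa libraries spread by 41.1 CPM (SD, n = 2), the widest of the members in CPM at 0 h, yet both stayed above the T-47D libraries (log2 difference -0.38, SE 0.067, adjusted p = 2.71e-05).

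In Ishikawa cells, 3 of the 4 synthesis genes were higher and the acetyltransferase gene SAT1 was lower after 4 h and 8 h of E2, by amounts between 0.25 and 0.63 on the log2 scale. In bulk RNA, a change in the make-up of the cells and a change in RNA per cell cannot be told apart. At 2 h, 1 of the 8 members passed the test (adjusted p under 0.05), beside 4.35% of the 15787 genes tested (2.61% higher and 1.74% lower). At 4 h it was 4 members, 3 higher and 1 lower, beside 14.3% of genes (7.66% higher and 6.60% lower), and at 8 h 5 members, 4 higher and 1 lower, beside 22.1% (12.0% higher and 10.1% lower). The median log2 change of the members was 0.05, 0.10 and 0.16 at 2, 4 and 8 h, against -0.0023, 0.0047 and -0.0088 over all genes tested. With the 4 h and 8 h libraries as 1 group, 4 members passed, 3 higher and 1 lower, beside 25.7% of genes (13.5% higher and 12.2% lower).

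Cell type markers moved in the same Ishikawa libraries. Of the 27 markers, 19 were tested, and 3 were called higher and 1 lower at 2 h. At 4 h 2 were called higher and 4 lower, and at 8 h 4 higher and 4 lower. Over the pooled late libraries 4 were called higher and 6 lower. The summed level of the 5 stromal markers was 254 to 277 CPM at 0 h, 215 to 234 at 2 h, 154 to 202 at 4 h and 165 to 186 at 8 h, without overlap with 0 h at any time. Of the 3 tested, 2 were called lower at 4 h and 8 h (COL1A1 and COL3A1). The other, COL1A2, pointed upward without a call, with a log2 change of 0.10 at 4 h (adjusted p = 0.904) and 0.94 at 8 h (adjusted p = 0.0958). COL1A2, DCN and LUM had medians below 1 CPM. COL1A1, a fibrillar collagen, had 246 and 269 CPM at 0 h, 150 and 197 after 4 h and 181 and 160 after 8 h, a log2 change of -0.56 at 4 h (adjusted p = 0.00161) and -0.60 at 8 h (adjusted p = 0.000823). The summed endometrial markers were 764 to 818 CPM at 0 h and lay above that at 2 h, at 836 to 840. They overlapped 0 h at 4 h (786 to 809) and 8 h (776 to 822). At 8 h PAX8 was lower (log2 change -0.61, adjusted p = 5.98e-05) and MSX1 higher (0.36, adjusted p = 0.000320). The summed epithelial markers were 2683 to 2706 CPM at 0 h and 2648 to 2654 at 2 h. They were 2398 to 2532 at 4 h and 2374 to 2619 at 8 h. Of these, KRT18 was called lower at 8 h (log2 change -0.35, adjusted p = 0.000600) and CDH1 higher (0.20, adjusted p = 0.0243). The summed breast luminal markers were 241 to 242 CPM at 0 h and 222 to 256 at 8 h. Of 5 tested, SPDEF (log2 change 3.59, adjusted p = 0.00242) and PRLR (0.40, adjusted p = 0.0120) were called higher at 8 h, with the SPDEF median below 1 CPM. The blood and endothelial markers summed to 8.26 to 8.48 CPM at 0 h, 6.15 to 6.82 at 4 h and 5.11 to 7.19 at 8 h, with CD3E at 0 in all 8 libraries. The part of these shifts in the changes of the members was not tested.

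**Figure D2:**
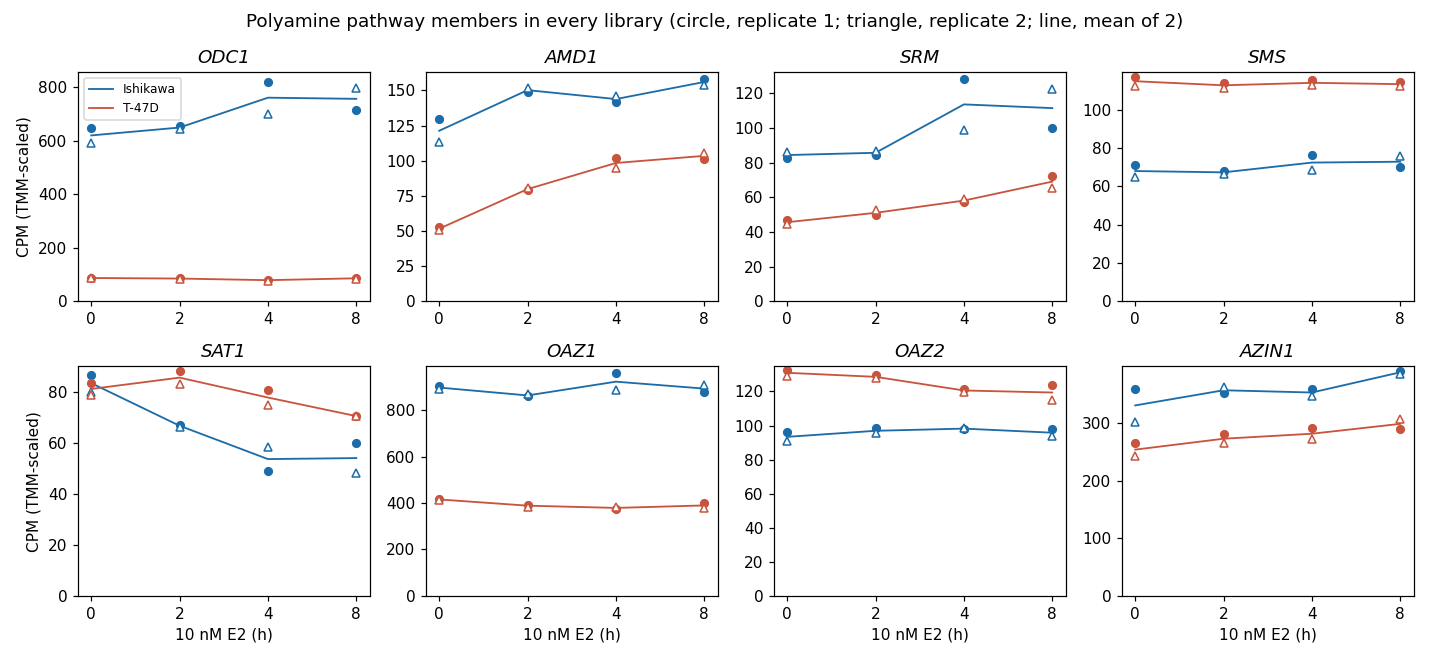
CPM of each member in every library against hours of 10 nM E2 (blue, Ishikawa; red, T-47D; circle, replicate 1; triangle, replicate 2; line, mean of the 2 libraries), each panel with its own axis from 0. ODC1 lies at 593 to 821 CPM in Ishikawa and at 78.0 to 88.3 CPM in T-47D cells, AMD1 climbs in T-47D cells, and SAT1 falls in Ishikawa cells.

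ODC1, the rate-limiting step, had 648 and 593 CPM at 0 h in Ishikawa cells, 654 and 646 after 2 h, 821 and 702 after 4 h and 715 and 799 after 8 h. The 2 h libraries overlapped those of 0 h, and all 4 late libraries lay above them, with 4 h replicate 1 and 8 h replicate 2 highest. The log2 change was 0.08 at 2 h (95% interval -0.08 to 0.23, adjusted p = 0.654), 0.30 at 4 h (SE 0.072, adjusted p = 0.0113) and 0.28 at 8 h (SE 0.072, adjusted p = 0.0110). With the late libraries as 1 group it was 0.29 (SE 0.061, adjusted p = 0.00243). The calls at 4 h and 8 h were lost without 0 h replicate 2 (adjusted p = 0.134 and 0.138), the one at 4 h also without 4 h replicate 1 (log2 change 0.19, adjusted p = 0.174) and the one at 8 h also without 8 h replicate 2 (log2 change 0.19, adjusted p = 0.133).

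AMD1, which supplies the aminopropyl donor, was the only member called at 2 h in Ishikawa cells. Its values were 129 and 113 CPM at 0 h, 149 and 152 after 2 h, 142 and 146 after 4 h and 158 and 154 after 8 h, so that every treated library exceeded both at 0 h. The log2 change was 0.32 at 2 h (SE 0.063, adjusted p = 0.00679), 0.25 at 4 h (SE 0.063, adjusted p = 0.0147) and 0.36 at 8 h (SE 0.063, adjusted p = 0.00108), and 0.31 over the pooled late libraries (adjusted p = 0.00122). The call at 2 h was lost without 0 h replicate 2 (log2 change 0.23, adjusted p = 0.0695) or either 2 h library (adjusted p = 0.0742 and 0.0995), and the call at 4 h without 0 h replicate 2 (log2 change 0.17, adjusted p = 0.115) or either 4 h library (adjusted p = 0.0506 and 0.0751). The 8 h call was kept with any 1 library left out.

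SRM, which makes spermidine, had 82.7 and 86.0 CPM at 0 h, 84.4 and 86.9 after 2 h, 128 and 99.0 after 4 h and 100 and 123 after 8 h in Ishikawa cells. It was level at 2 h and above both 0 h libraries later, again with 4 h replicate 1 and 8 h replicate 2 highest. Its log2 change was 0.43 at 4 h (SE 0.10, adjusted p = 0.0105), 0.40 at 8 h (SE 0.10, adjusted p = 0.0120) and 0.42 over the pooled late libraries (SE 0.088, adjusted p = 0.00277). Without 4 h replicate 1 the change at 4 h was 0.24 (adjusted p = 0.199) and without 8 h replicate 2 that at 8 h was 0.23 (adjusted p = 0.165). Both calls were also lost without either 0 h library (adjusted p from 0.0650 to 0.0780) and with DESeq2 (adjusted p = 0.0516 and 0.0635). SMS, which makes spermine, stayed between 65.1 and 76.1 CPM in the 8 Ishikawa libraries, overlapped its 0 h values at every time, and was not called, with a log2 change of 0.10 at 8 h (95% interval -0.05 to 0.24).

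SAT1 fell in Ishikawa cells, from 86.8 and 80.2 CPM at 0 h to 67.2 and 66.5 after 2 h, 49.0 and 58.4 after 4 h and 59.9 and 48.3 after 8 h. Every treated library lay below both 0 h libraries, and the lowest were 4 h replicate 1 and 8 h replicate 2, the same 2 that were highest for ODC1 and SRM. The log2 change was -0.31 at 2 h, which did not pass (SE 0.094, adjusted p = 0.0814). It was -0.63 at both 4 h (SE 0.095, adjusted p = 0.000377) and 8 h (SE 0.095, adjusted p = 0.000321), and -0.63 over the pooled late libraries (adjusted p = 2.67e-05). The late calls were kept with any 1 library left out, and the 2 h value passed with DESeq2 (adjusted p = 0.0280), with no filter on low counts (adjusted p = 0.000260) and in a fit of 0 h and 2 h alone (adjusted p = 0.0120).

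Of the regulators of ornithine decarboxylase, neither antizyme gene was called in Ishikawa cells. OAZ1 ranged from 859 to 960 CPM and OAZ2 from 90.7 to 98.7 CPM over the 8 libraries, with log2 changes at 8 h of -0.0100 (95% interval -0.12 to 0.10) and 0.03 (95% interval -0.09 to 0.16). The antizyme inhibitor gene AZIN1 had 360 and 302 CPM at 0 h, 352 and 363 after 2 h, 360 and 347 after 4 h and 392 and 386 after 8 h. Only the 8 h libraries lay above both at 0 h, with a log2 change of 0.23 (SE 0.067, adjusted p = 0.0238). That call was lost over the pooled late libraries (log2 change 0.17, adjusted p = 0.0616), in the fit of 0 h and 8 h alone (adjusted p = 0.0528) and without 0 h replicate 2 (log2 change 0.11, adjusted p = 0.218), 8 h replicate 1 (adjusted p = 0.0726) or 8 h replicate 2 (adjusted p = 0.0815).

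In T-47D cells, AMD1 rose from 2 h on and stood at 2.00-fold by 8 h, SRM rose from 4 h on, and ODC1 was not called higher at any time. At 2 h, 1 of the 8 members was called, beside 9.30% of the 15594 genes tested (4.90% higher and 4.40% lower). At 4 h, 4 members were called, 2 higher and 2 lower, beside 21.5% of genes (11.1% higher and 10.4% lower). At 8 h, 5 were called, 3 higher and 2 lower, beside 29.7% (15.4% higher and 14.3% lower). The median log2 change of the members was 0.02, -0.04 and -0.02 at 2, 4 and 8 h, against -0.0094, -0.0046 and 0.0030 over all genes tested. With the 4 h and 8 h libraries as 1 group, 5 members were called, 3 higher (AMD1, SRM and AZIN1) and 2 lower (OAZ1 and OAZ2), beside 24.7% of genes (12.6% higher and 12.1% lower). Of the 17 markers tested in T-47D cells, 3 were called higher and 3 lower at 2 h and 5 higher and 3 lower at 4 h. At 8 h 6 were called higher and 5 lower. The higher ones at 8 h were PRLR, TFF1, AGR2, KRT19, KRT8 and KRT18, and the lower ones SPDEF, CDH1 and 3 of the 4 stromal markers tested. The summed epithelial markers were 6575 to 6882 CPM at 0 h, 8168 to 8252 at 2 h and 8558 to 8729 at 8 h. The summed luminal ones were 11780 to 12225 CPM at 0 h, 12666 to 13178 at 2 h and 13212 to 13521 at 8 h. From 0 h to 8 h the summed stromal ones went from 94.5 to 103 CPM down to 77.7 to 84.1. The part of these shifts in the members' changes was not tested.

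AMD1 had 52.8 and 50.6 CPM at 0 h, 79.0 and 80.7 after 2 h, 102 and 94.7 after 4 h and 101 and 106 after 8 h in T-47D cells. The 2 h libraries lay above both at 0 h, and the 4 h and 8 h libraries lay above all of these and overlapped each other. The log2 change was 0.62 at 2 h (SE 0.054, adjusted p = 2.06e-07), 0.92 at 4 h (SE 0.053, adjusted p = 6.24e-10) and 1.00 at 8 h (SE 0.053, adjusted p = 1.56e-10), a 2.00-fold level. SRM had 46.9 and 44.4 CPM at 0 h, 49.6 and 52.5 after 2 h, 57.4 and 58.8 after 4 h and 72.6 and 65.6 after 8 h, so that the 4 pairs of libraries did not overlap. Its log2 change was 0.15 at 2 h (SE 0.060, adjusted p = 0.130), 0.34 at 4 h (SE 0.059, adjusted p = 0.000373) and 0.60 at 8 h (SE 0.059, adjusted p = 4.53e-07). SRM was also the member called between 8 h and 4 h in T-47D cells. The AMD1 calls at 2, 4 and 8 h and the SRM calls at 4 h and 8 h were kept with any 1 of the 8 libraries left out.

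ODC1 had 86.7 and 88.3 CPM at 0 h in T-47D cells, 86.3 and 84.5 after 2 h, 80.6 and 78.0 after 4 h and 87.6 and 85.2 after 8 h. The 2 h and 4 h libraries lay below both at 0 h, and the 8 h libraries overlapped them. The log2 change was -0.04 at 2 h (adjusted p = 0.648), -0.15 at 4 h (SE 0.047, adjusted p = 0.0349) and -0.02 at 8 h (95% interval -0.12 to 0.08, adjusted p = 0.816). The 4 h call was lost without 0 h, 2 h or 4 h libraries, each left out singly, in 6 of 8 cases (adjusted p from 0.0632 to 0.250), and with no filter on low counts (adjusted p = 0.0550) and over the pooled late libraries (log2 change -0.08, adjusted p = 0.291). SMS stayed between 111 and 117 CPM and was not called at any time, with a log2 change of -0.02 at 8 h (95% interval -0.11 to 0.08).

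SAT1 in T-47D cells had 83.7 and 78.8 CPM at 0 h, 88.1 and 83.3 after 2 h, 80.8 and 75.0 after 4 h and 70.7 and 70.5 after 8 h. Only the 8 h libraries lay below both at 0 h, with a log2 change of -0.20 (SE 0.054, adjusted p = 0.00815), and this call was lost without 0 h replicate 1 (log2 change -0.16, adjusted p = 0.0831) and over the pooled late libraries (log2 change -0.13, adjusted p = 0.112). OAZ1 had 418 and 413 CPM at 0 h, 393 and 385 after 2 h, 374 and 384 after 4 h and 401 and 379 after 8 h, all 6 treated libraries below the 0 h libraries. Its log2 change passed at 4 h (-0.14, SE 0.039, adjusted p = 0.0164) and was -0.10 at 2 h (adjusted p = 0.110) and -0.09 at 8 h (adjusted p = 0.0861). The OAZ1 call was lost when any of the 4 libraries of 0 h and 4 h was left out (adjusted p from 0.0638 to 0.213). OAZ2 had 133 and 129 CPM at 0 h, 130 and 128 after 2 h, 122 and 119 after 4 h and 124 and 115 after 8 h, with log2 changes of -0.12 at 4 h (adjusted p = 0.0663) and -0.13 at 8 h (SE 0.047, adjusted p = 0.0386). The OAZ2 call at 8 h was lost in 7 of 8 cases with 1 library left out (8 h replicate 1 was the exception), with no filter on low counts (adjusted p = 0.0619) and in the fit of 0 h and 8 h alone (adjusted p = 0.103). AZIN1 had 265 and 243 CPM at 0 h, 281 and 265 after 2 h, 292 and 272 after 4 h and 290 and 308 after 8 h. Its 4 h and 8 h libraries lay above both at 0 h, with a log2 change of 0.14 at 4 h (adjusted p = 0.0548) and 0.23 at 8 h (SE 0.051, adjusted p = 0.00193), and the 8 h call was kept with any 1 library left out. The 4 h value of AZIN1 passed with DESeq2 (adjusted p = 0.0328), RLE scaling (0.0480), no filter on low counts (0.00662) and at least 10 counts in every library (0.0393), and over the pooled late libraries AZIN1 was at 0.19 (adjusted p = 0.0165).

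**Figure D3:**
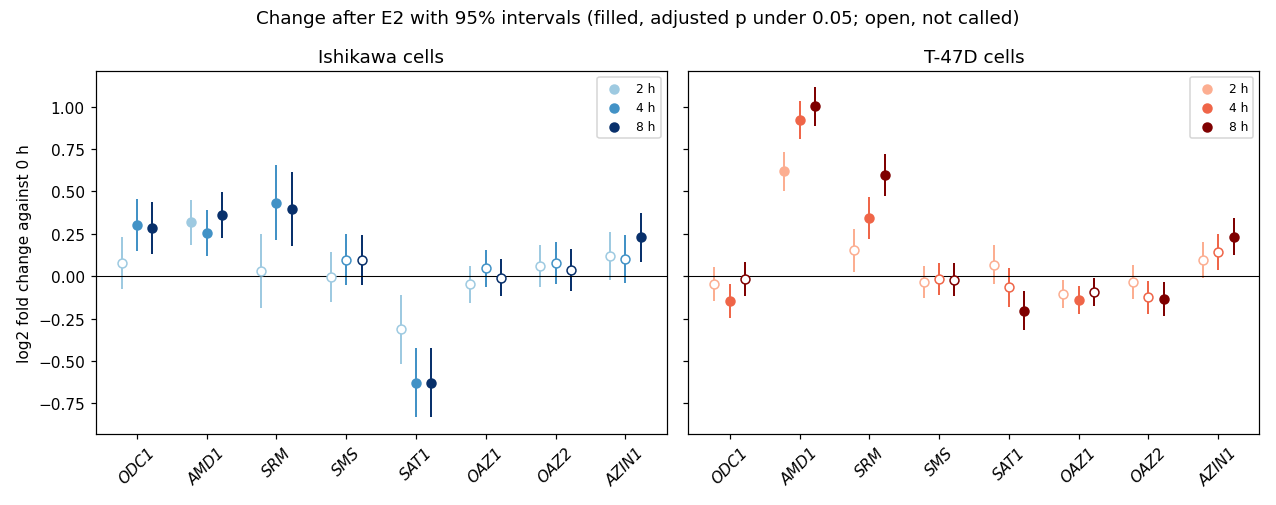
Log2 change of each member against 0 h with 95% intervals, at 2, 4 and 8 h from light to dark, in Ishikawa (left) and T-47D cells (right); filled points have an adjusted p under 0.05. AMD1 reaches 1.00 in T-47D against 0.36 in Ishikawa cells at 8 h, SAT1 -0.63 in Ishikawa against -0.20 in T-47D cells, and ODC1 is above 0 with filled points in Ishikawa cells only.

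The responses of ODC1, AMD1 and SAT1 differed between the lines at 4 h and 8 h by the test of the difference itself, an interaction of line and time over all 16 libraries. At 2 h no member passed this edgeR test, beside 2.67% of the 17090 genes tested (1.40% with the change higher and 1.28% lower in T-47D cells). AMD1 came nearest in p (T-47D minus Ishikawa 0.32 on the log2 scale, adjusted p = 0.0508; unadjusted p = 0.00137), and SAT1, at 0.40, had an adjusted p of 0.0966 (unadjusted p = 0.00323). These were the 2 members with an unadjusted p under 0.05 at 2 h, and with DESeq2 AMD1 passed (adjusted p = 0.0317). At 4 h 3 members passed, 2 higher and 1 lower, beside 6.03% of genes (3.21% higher and 2.83% lower), and at 8 h 3 passed, again 2 higher and 1 lower, beside 10.0% (5.32% higher and 4.70% lower).

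ODC1 changed less in T-47D than in Ishikawa cells, by -0.44 on the log2 scale at 4 h (SE 0.093, adjusted p = 0.00556) and -0.31 at 8 h (SE 0.093, adjusted p = 0.0403). AMD1 changed more in T-47D cells, by 0.68 at 4 h (SE 0.085, adjusted p = 1.76e-05) and 0.64 at 8 h (SE 0.085, adjusted p = 3.04e-05). For SAT1, which fell in Ishikawa cells, the difference was 0.58 at 4 h (SE 0.12, adjusted p = 0.00467) and 0.42 at 8 h (SE 0.12, adjusted p = 0.0284). With the 4 h and 8 h libraries as 1 group in each line, the differences were -0.37 for ODC1 (adjusted p = 0.00697), 0.66 for AMD1 (adjusted p = 9.21e-06) and 0.50 for SAT1 (adjusted p = 0.00430), 3 members called beside 8.96% of genes (4.92% higher and 4.04% lower). The 3 calls at 4 h and the AMD1 call at 8 h were kept with any 1 of the 16 libraries left out, whereas the 8 h call was lost in 10 of 16 cases for ODC1 and in 6 of 16 for SAT1.

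The change of SRM was not called different between the lines at any time, with T-47D minus Ishikawa at -0.08 at 4 h (95% interval -0.37 to 0.20) and 0.20 at 8 h (95% interval -0.09 to 0.48). AZIN1 rose by a like amount at 8 h in both, with a difference of 0.0027 on the log2 scale (95% interval -0.19 to 0.20), and the interval for SMS at 8 h ran from -0.29 to 0.06. The intervals of OAZ1 at 4 h (-0.31 to -0.04) and of OAZ2 at 4 h (-0.34 to -0.04) and 8 h (-0.32 to -0.02) lay below 0, with adjusted p of 0.140, 0.149 and 0.160, and with DESeq2 both antizyme genes passed at 4 h (adjusted p = 0.0235 and 0.0363).

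Ratios of transcripts within a library, from CPM per kb, put the members side by side without a test. ODC1 per OAZ1, the enzyme against its main antizyme, was 0.332 and 0.308 at 0 h in Ishikawa cells and 0.353 and 0.345 at 2 h. It was 0.396, 0.367, 0.377 and 0.408 in the 4 late libraries, and every treated Ishikawa library lay above both at 0 h. In T-47D cells it stayed between 0.0943 and 0.104 in all 8 libraries. AMD1 per ODC1 was 0.144 and 0.138 at 0 h and between 0.125 and 0.170 in all Ishikawa libraries, whereas in T-47D cells it went from 0.441 and 0.414 at 0 h to 0.662 and 0.690 at 2 h and to 0.836 to 0.916 later. SAT1 per SRM, acetylation against spermidine synthesis, fell from 1.26 and 1.12 at 0 h to 0.460 to 0.719 in the late Ishikawa libraries. In T-47D cells it was 2.14 and 2.13 at 0 h and 1.17 and 1.29 at 8 h, so that the 8 h T-47D libraries stood near the untreated Ishikawa libraries.

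**Figure D4:**
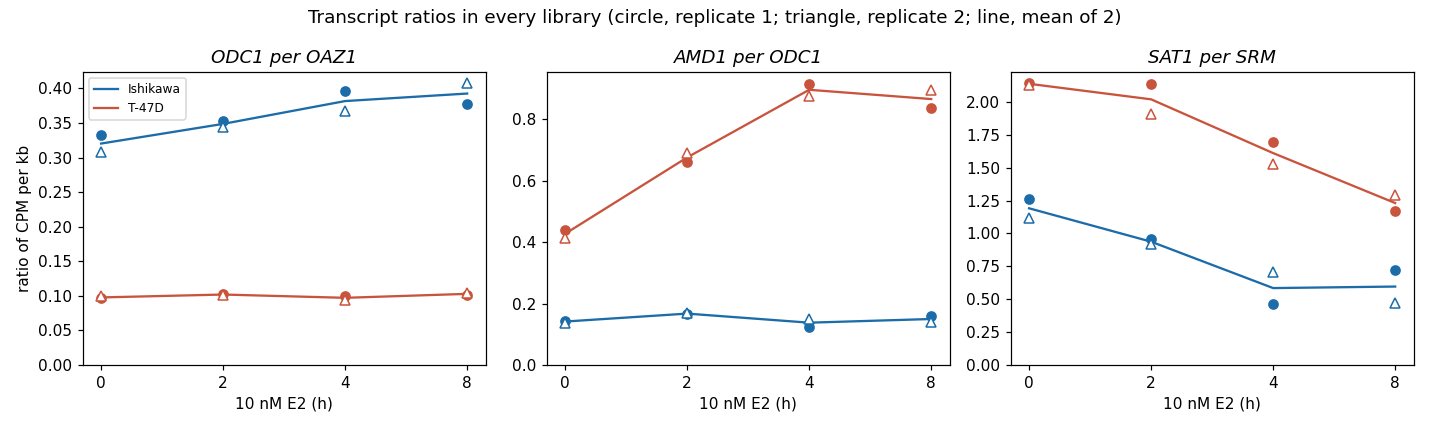
Ratios of CPM per kb in every library against hours of 10 nM E2 for ODC1 per OAZ1, AMD1 per ODC1 and SAT1 per SRM (blue, Ishikawa; red, T-47D; circle, replicate 1; triangle, replicate 2; line, mean). AMD1 per ODC1 is between 0.836 and 0.916 in the late T-47D libraries against 0.170 at most in Ishikawa cells, and SAT1 per SRM declines in both lines.

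Genes with a response most like that of ODC1 were ranked by the root mean square difference of their log2 changes from those of ODC1 over the 6 comparisons with 0 h, among 8773 genes with a mean of at least 10 CPM in each line. The comparisons within a line share their 0 h libraries, and the ranking is a description. It took the late Ishikawa libraries by their labels. The nearest were ASS1 (0.0307), which makes argininosuccinate on the way to arginine, DTD2 (0.0357), NPTXR (0.0470), KIAA0930 (0.0477) and ATPAF2 (0.0492). These differences were smaller than the SE of the ODC1 change in Ishikawa cells (0.072 at each time), so the order of the nearest genes is uncertain. ASS1 had log2 changes of 0.07, 0.31 and 0.24 at 2, 4 and 8 h in Ishikawa cells and of -0.04, -0.10 and -0.04 in T-47D cells, against 0.08, 0.30 and 0.28 and -0.04, -0.15 and -0.02 for ODC1. Among the other members SMS was nearest to ODC1, at rank 698, followed by OAZ2 (1198), OAZ1 (2429) and AZIN1 (3278). SRM (7537), SAT1 (8553) and AMD1 (8652) stood far down the list. A low rank over 6 comparisons does not mean unlike in both lines, and SMS, the nearest, was called in neither. In Ishikawa cells SRM (0.03, 0.43 and 0.40) and AMD1 (0.32, 0.25 and 0.36) also rose by 4 h and 8 h. In T-47D cells ODC1 changed little, whereas AMD1 reached 1.00 and SRM 0.60 at 8 h.

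A list of 39 other genes of polyamine supply, breakdown, transport and use was read in the same fits, of which 31 were tested in Ishikawa and 33 in T-47D cells. In Ishikawa cells 2 rose and 0 fell at 2 h, beside 4.35% of all genes called, 12 rose and 1 fell at 4 h, beside 14.3%, and 14 rose and 1 fell at 8 h, beside 22.1%. Over the pooled late libraries 14 rose and 2 fell, beside 25.7%. In T-47D cells 5 rose and 0 fell at 2 h, beside 9.30%, 9 rose and 1 fell at 4 h, beside 21.5%, and 11 rose and 2 fell at 8 h, beside 29.7%. The median log2 change of the list at 8 h was 0.15 in Ishikawa and 0.07 in T-47D cells, against -0.0088 and 0.0030 over all genes tested.

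**Figure D5:**
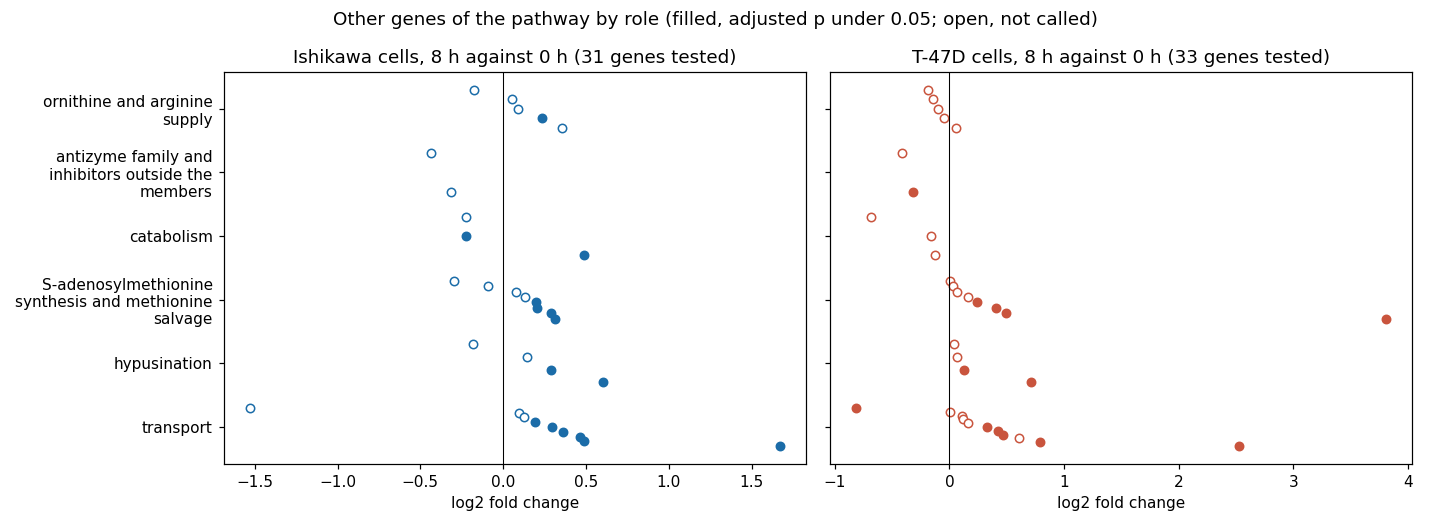
Log2 change at 8 h against 0 h of the other pathway genes by role, in Ishikawa (31 genes tested) and T-47D cells (33 genes tested), each point 1 gene; filled points have an adjusted p under 0.05. In the transport row most filled points lie above 0, with SLC7A2 at 1.67 in Ishikawa and SLC47A1 at 2.52 in T-47D cells, and the highest point in T-47D cells is MAT1A at 3.81.

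Transport was the role with the most genes tested. At 8 h 6 of its 9 tested genes were higher in Ishikawa cells, beside 12.0% of all genes called higher. In T-47D cells 5 of 11 were higher, beside 15.4%, and 1 was lower, beside 14.3%. SLC7A1, a transporter of arginine and ornithine, had 458 and 479 CPM before E2 in Ishikawa cells, then 521 and 551 after 8 h (log2 change 0.19, adjusted p = 0.0219). In T-47D cells SLC7A1 went from 41.2 and 42.5 to 74.5 and 70.7 CPM (log2 change 0.79, adjusted p = 5.42e-09), and the difference between the lines at 8 h was 0.60 (adjusted p = 9.93e-06). SLC7A2, of the same family, went from 1.04 and 0.940 CPM at 0 h in Ishikawa cells to 3.94 and 2.88 after 4 h, then 2.74 and 3.62 after 8 h (log2 change 1.67 at 8 h, adjusted p = 0.000266; 1.73 over the pooled late libraries). In T-47D cells SLC7A2 lay between 10.4 and 12.5 CPM, with no call. SLC3A2, a partner subunit of amino acid transporters that has been tied to polyamine traffic, rose in both lines by 8 h (log2 change 0.49, adjusted p = 0.00306 in Ishikawa; 0.43, adjusted p = 3.28e-07 in T-47D cells). SLC47A1, a proton-coupled exporter of organic cations, went from 1.71 and 2.23 CPM at 0 h in T-47D cells to 6.36 and 6.52 after 2 h, then 11.2 and 11.4 after 8 h (log2 change 2.52 at 8 h, adjusted p = 2.77e-10), and from 34.5 and 32.1 to 42.0 and 43.6 in Ishikawa cells (0.36, adjusted p = 0.00756). ATP13A4, of the family of polyamine-transporting ATPases, fell in T-47D cells from 9.17 and 9.43 CPM to 4.90 and 5.68 at 8 h (log2 change -0.81, adjusted p = 3.65e-05), and it stayed at or below 0.280 CPM in Ishikawa cells.

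Synthesis and salvage of S-adenosylmethionine, the substrate of AMD1, had 4 of 8 tested genes higher at 8 h in each line and none lower. Of all genes, 12.0% were called higher at 8 h in Ishikawa and 15.4% in T-47D cells. MAT2A, the methionine adenosyltransferase of most tissues, rose by 0.20 in Ishikawa (adjusted p = 0.0236) and 0.24 in T-47D cells (adjusted p = 0.000330) on the log2 scale. MTAP, which recycles the byproduct of aminopropyl transfer, rose by 0.20 (adjusted p = 0.0288) and 0.41 (adjusted p = 4.28e-05). MAT1A, the liver form of the transferase, rose in T-47D cells from 4 and 6 counts at 0 h to 45 and 33 at 2 h and 85 and 82 at 8 h (log2 change 3.81, adjusted p = 4.75e-07), still below 2 CPM, and the fitted size rests on few counts at 0 h. In hypusination, the use of spermidine to modify eIF5A, EIF5A2 rose at 8 h by 0.60 in Ishikawa (adjusted p = 0.000256) and 0.71 in T-47D cells (adjusted p = 0.000121). In each line 2 of 4 genes of the role were higher at 8 h, beside the same 12.0% and 15.4% of all genes. In catabolism SMOX, spermine oxidase, had 9.03 and 7.58 CPM at 0 h in Ishikawa cells and between 11.0 and 14.0 in the 6 treated libraries, and its log2 change was 0.56 at 2 h (adjusted p = 0.0178), 0.60 at 4 h (adjusted p = 0.00588) and 0.49 at 8 h (adjusted p = 0.0132). In T-47D cells SMOX lay at or below 0.421 CPM. Of the 3 catabolic genes tested besides SAT1, 1 was called higher and 1 lower in Ishikawa cells at both 4 h and 8 h, beside 14.3% and 22.1% of all genes called. None was called in T-47D cells at any time. PAOX, which oxidises acetylated polyamines, was the lower one at 4 h (log2 change -0.44, adjusted p = 0.0339), and SAT2, a relative of SAT1, at 8 h (-0.22, adjusted p = 0.0426). Over the pooled late Ishikawa libraries both were lower (-0.32, adjusted p = 0.0457, for PAOX; -0.19, adjusted p = 0.0407, for SAT2). Of the genes for ornithine and arginine supply, ASS1 alone was called, in Ishikawa cells at 4 h and 8 h, and of the antizyme relatives outside the members, OAZ3 alone, lower in T-47D cells at 8 h (log2 change -0.32, adjusted p = 0.0331).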

How the data were processed

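Poly(A) RNA of 16 bulk samples was sequenced by the authors with a directional kit. Per the study's methods they aligned reads to hg19 with HISAT2, used SAMtools for conversion and counted them over UCSC Known Genes by featureCounts. The authors deposited whole-number counts per gene, 1 table a line, without normalization; the strand setting and the handling of reads with several alignments are not given in the sources used here. Among counts from 1 to 10, 71.2% to 74.6% were even numbers, depending on the library (the cause was not tested).

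From these counts, libraries were scaled by TMM and tested with edgeR 4.0.16 (R 4.3.3; glmQLFit and glmQLFTest, filterByExpr), 1 fit of 4 groups a line and 1 fit of all 8 groups for differences between lines, with Benjamini-Hochberg adjustment over all genes tested and a call at an adjusted p under 0.05. CPM in the text uses 1 TMM scaling of all 16 libraries, and per kb it is divided by the MANE transcript length of GENCODE on GRCh37, which may not be the transcript used by a line. The fits were tested on simulated data with 200 changed genes, shifted by 1 in size on the log2 scale, for the 2 h comparisons. They recovered 81.5% of these genes in Ishikawa cells, 84% in T-47D cells and 68.5% for the difference between lines. False calls made up 8.43%, 7.18% and 9.27% of all calls in the same order, more than an adjusted p under 0.05 allows for. Calls with an adjusted p close to 0.05 are therefore less certain than that value states. Replicates differed beyond sampling noise in every group (chi-square per gene 3.60 to 10.8). Alternatives were DESeq2 1.42.0, RLE scaling, 2 other filters, an adjusted p under 0.01, a replicate block, fits of only the 2 time points compared, pooled late libraries and each library left out. The members and lists were chosen with earlier results of these data known. Besides the members, pathway genes were named if called with a log2 change of at least 0.5 in size in any of the 6 comparisons with 0 h, as were the 5 genes most like ODC1; MAT2A, MTAP, OAZ3, PAOX and SAT2 were named after their values were seen. For promoters, RefSeq sequences and their own build were used, and no coordinates were converted.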

Additional observations from a re-analysis of the deposited data

Results flagged for a closer look

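The change after E2 of 3 members differed between the lines by the edgeR interaction test over all 16 libraries. For ODC1 the change in T-47D minus that in Ishikawa cells was -0.44 on the log2 scale at 4 h and -0.31 at 8 h, from a rise in Ishikawa cells of 0.30 and 0.28 and values in T-47D cells of -0.15 and -0.02. For AMD1 it was 0.68 at 4 h and 0.64 at 8 h, with a rise in both lines. For SAT1 it was 0.58 at 4 h and 0.42 at 8 h, with a fall of 0.63 on the log2 scale in Ishikawa cells at both times. In T-47D cells SAT1 was at -0.07 and -0.20, called lower at 8 h only. With 1 library left out, the 8 h difference ran from -0.42 to -0.24 for ODC1 and from 0.25 to 0.55 for SAT1. Neither of these 8 h calls was kept in every case. Each Ishikawa library of 4 h lay closest to one labelled 8 h. With the 4 h and 8 h libraries of each line as 1 group, all 3 calls were kept, at -0.37 for ODC1, 0.66 for AMD1 and 0.50 for SAT1. Line and handling of the line cannot be told apart.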

How the results depend on the processing

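The number of members called was taken again under each alternative. In Ishikawa cells at 2 h it was 2 with DESeq2 (beside 5.30% of all genes), with no filter on low counts (5.56%) and with only the 2 time points compared (4.28%), against 1. At an adjusted p under 0.01, which lowers counts by construction, it was 1 at 4 h (6.82%) and 2 at 8 h (11.1%) in Ishikawa cells, 2 at 4 h in T-47D cells (12.8%) and 1 for the difference between lines at 8 h (5.38%). For the difference between lines at 2 h it was 1 with DESeq2 (3.38%), 2 with no filter (3.07%) and 1 with at least 10 counts in every library (3.49%), against 0, and at 4 h it was 5 with DESeq2 (7.53%), against 3. The cause was not tested. With 1 library left out, counts ran from 0 to 2, 1 to 4 and 2 to 5 in Ishikawa cells at 2, 4 and 8 h (beside 1.99% to 10.7%, 6.16% to 18.5% and 8.73% to 26.2% of all genes), from 1 to 1, 2 to 6 and 3 to 6 in T-47D cells (5.10% to 11.3%, 11.4% to 24.1% and 21.4% to 28.1%), from 0 to 1, 3 to 4 and 1 to 3 for differences between lines (1.86% to 2.98%, 3.77% to 6.74% and 6.78% to 13.8%), and 7 to 7 at 0 h (76.1% to 80.8%). A lone library left in a group was assumed to vary like the other groups.

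Values of single members that changed sign were small and not called. Over the pooled late libraries OAZ1 in Ishikawa cells at 8 h was 0.019 and the SRM difference between lines at 4 h 0.063. The AZIN1 difference at 8 h was -0.030 with DESeq2, -0.030 with RLE scaling, -0.012 with no filter and -0.0047 with at least 10 counts. With 1 library left out, log2 changes in Ishikawa cells ran from -0.00037 to 0.067 for SRM at 2 h, -0.060 to 0.054 for SMS at 2 h, -0.014 to 0.23 for AZIN1 at 4 h, -0.0080 to 0.095 for OAZ1 at 4 h, -0.046 to 0.022 for OAZ1 at 8 h and -0.00027 to 0.074 for OAZ2 at 8 h. In T-47D cells they ran from -0.051 to 0.0030 at 2 h, -0.037 to 0.017 at 4 h and -0.041 to 0.013 at 8 h for SMS. ODC1 at 8 h ran from -0.035 to 0.0083. Differences between lines ran from -0.17 to 0.11, -0.091 to 0.17 and -0.16 to 0.12 for AZIN1 at 2, 4 and 8 h, -0.11 to 0.048 for SMS at 2 h, -0.26 to 0.092 for SRM at 4 h and -0.094 to 0.033 for SAT1 at 0 h. Of 496 member values under other settings, 464 kept direction and side of the threshold, 9 lost a call, 17 gained one and 6 changed sign.

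Same-numbered libraries did not deviate together (correlations from -0.215 to 0.0606 in Ishikawa and from -0.0705 to 0.115 in T-47D cells). Pairing of libraries across other numbers was not tested. A replicate block left the members called at 1, 4 and 5 in each line, at 0, 3 and 3 between lines and at 7 at 0 h, and changed no member's call. Some values gained a call in edgeR with 1 library left out: in Ishikawa cells AZIN1 at 2 h and 4 h without 0 h replicate 1 (adjusted p = 0.0141 and 0.0120) and SAT1 at 2 h without any 1 of the 4 h and 8 h libraries (0.0237 to 0.0462), in T-47D cells AZIN1 at 4 h without 0 h replicate 1, 4 h replicate 2 or either 8 h library, OAZ2 at 4 h without either 8 h library and OAZ1 at 8 h without 8 h replicate 1, and between lines AMD1 at 2 h without Ishikawa 0 h replicate 2 (0.00386), OAZ1 at 4 h without Ishikawa 4 h replicate 2 (0.0300) and OAZ2 at 8 h without Ishikawa 0 h replicate 1 (0.0481). No scaling moved the median of all genes by over 0.1 on the log2 scale. With each time point as its own group, the smallest change called among the members was -0.13 on the log2 scale, for OAZ2 in T-47D cells at 8 h. Over the pooled late libraries it was -0.115, for OAZ1 in T-47D cells. With 2 libraries a group smaller changes may pass unseen.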
